A study of Homo sapiens with 6 samples.

Results

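The genes described here make ribosomes. They are 49 protein-coding genes of ribosome biogenesis and RNA polymerase I transcription, listed by symbol out of the 34036 genes of the count table, and all 49 were found there. Their counts came from HepG2 cells, a human line derived from a hepatocellular carcinoma. Control cells (siCON) received a non-targeting siRNA and siDGk cells received an siRNA pool against DGUOK, both by Lipofectamine RNAiMAX, and 3 libraries of each group were harvested at 48 h. DGUOK encodes deoxyguanosine kinase, the mitochondrial enzyme that phosphorylates purine deoxynucleosides, and the comparison asks how the cells' transcripts differ early after its depletion. Groups were read from the sample titles, because the labels' treatment entry reads siControl in all 6 of them. Nothing in the labels says whether the replicates of a group were separate cultures, so p-values measure only the spread between these libraries.

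Total counts were 19065684, 18915508 and 10527216 in siCON replicates 1, 2 and 3 and 18613138, 15978314 and 21334876 in siDGk replicates 1, 2 and 3. Levels are given as CPM, counts scaled to a common library size after edgeR's TMM scaling. All 49 members passed the filter on low counts, which 14476 genes of the table passed, and their counts in single libraries ran from 117 to 35107. CPM is a share of each library, so fewer cells and less RNA per cell cannot be told apart in these bulk samples.

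Ribosome production starts in the nucleolus, where RNA polymerase I transcribes the ribosomal DNA into a long precursor. The small-subunit processome folds and cleaves that precursor, small nucleolar ribonucleoproteins modify it, and separate sets of factors mature the large and the small subunit before export to the cytoplasm. MYC is a transcription factor known to raise the expression of many of these genes. Reads from ribosomal RNA were removed by the authors before counting, so the precursor itself was not analysed here.

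DGUOK was checked first. Its level was 54.4, 53.1 and 48.2 CPM across siCON libraries 1 to 3, against 9.08, 10.5 and 6.72 CPM across siDGk libraries 1 to 3. Every siDGk library was below every siCON library, and the log2 fold change was −2.57 ± 0.19 (SE), at an adjusted p of 1.64e-08 in edgeR's test.

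Markers of the cell line moved with the groups. Of 9 hepatocyte and hepatoma markers, 8 were called lower in siDGk cells and 1, SERPINA1, was not called. Their summed level was 52875, 47121 and 46127 CPM across siCON libraries 1 to 3, against 27418, 23922 and 22503 CPM across siDGk libraries 1 to 3, with ALB taking the most counts of the 9 in each siCON library and SERPINA1 in each siDGk library. Both tested B cell markers together reached 1.28, 1.23 and 1.62 CPM across siCON libraries 1 to 3, against 5.51, 10.0 and 11.4 CPM across siDGk libraries 1 to 3. CD79A was called higher, with counts of 0, 0 and 7 in the siCON libraries and 78, 161 and 209 in the siDGk libraries. MS4A1 was not in the table. The 3 tested T cell markers summed to 2.30, 8.10 and 5.53 CPM across siCON libraries 1 to 3, against 12.5, 16.6 and 8.74 CPM across siDGk libraries 1 to 3. CD3G was at 0 counts in siCON replicate 1. CD2 did not pass the filter, with counts of 0, 20 and 0 in the siCON libraries and 2, 115 and 0 in the siDGk libraries. Joining segments of the T cell receptor delta locus took 100215 reads of siDGk library 1 and 476 of library 2, with 0 in each other library. The 3 endothelial markers summed to 1.66, 1.39 and 2.29 CPM across siCON libraries 1 to 3, against 3.78, 56.2 and 4.05 CPM across siDGk libraries 1 to 3. In siDGk replicate 2 the counts were 510 for VWF, 258 for PECAM1 and 145 for CDH5, above those of each other library. The 3 fibroblast markers summed to 12.1, 15.0 and 10.3 CPM across siCON libraries 1 to 3, against 33.1, 37.6 and 21.2 CPM across siDGk libraries 1 to 3, with COL1A1 called higher and PDGFRB called lower. CDH5 had no counts in siCON replicates 1 and 2, and COL1A2 none in siCON replicates 2 and 3 and siDGk replicate 3. The 4 myeloid markers, nearly all LYZ, summed to 1611, 1701 and 1703 CPM across siCON libraries 1 to 3, against 1900.0, 1754 and 1767 CPM across siDGk libraries 1 to 3. PTPRC, the leukocyte marker among them, had counts of 9, 55 and 2 in the siCON libraries and 37, 129 and 58 in the siDGk libraries. CD14 had counts of 18, 35 and 29 in the siCON libraries and 16, 0 and 24 in the siDGk libraries, and CD68 had 8, 12 and 0 against 21, 12 and 2. The 2 cholangiocyte keratins, nearly all KRT19, summed to 733, 969 and 979 CPM across siCON libraries 1 to 3, against 2307, 2551 and 2764 CPM across siDGk libraries 1 to 3. KRT19 was called higher and KRT7 was not called. No tested T cell, endothelial or myeloid marker was called, where 14.1% of all genes were. Apart from LYZ, these markers had few counts and wide estimates. The endothelial log2 fold changes ran from 2.85 to 4.04, with standard errors of 1.27 to 2.40. The T cell ones ran from 1.10 to 2.42, with a median standard error of 1.35. The absence of calls therefore does not show that these markers were alike in the groups. The part of these markers in the values of the ribosome genes was not tested. Values of the called members without siDGk replicate 1 or 2, the libraries that stand apart, are given with each of them.

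Calls required both an adjusted p below 0.05 from edgeR's quasi-likelihood test and a log2 fold change beyond 0.5 in either direction. Of the 49 members, 2 were called higher in siDGk cells, RCL1 and UTP4, where 7.42% of the 14476 genes tested were called higher. One member (1 of 49), NOL6, was called lower, against 6.68% of the genes tested. Without siDGk replicate 3 the members called higher were 1, and those called lower were 0 without siCON replicate 2 and 2 without siDGk replicate 1. In both directions together, with all libraries, the calls made 6.12% of the members and 14.1% of all genes. At the adjusted p alone, 4 members were higher (RCL1, UTP4, RRP12 and GNL3) where 10.3% of all genes were, and 3 were lower (NOL6, BMS1 and NCL) where 9.35% were. Without siCON replicate 3 there were 2 in each direction. At an unadjusted p under 0.05 there were 12 members, where 30.6% of all genes passed, and DESeq2 called 2, where it called 14.0% of all genes. The median log2 fold change of the members was 0.030, beside 0.017 over all genes, with 27 members above 0 and 22 below.

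Most members were measured closely enough to bound their difference. The standard error of the log2 fold change ran from 0.064 (NPM1) to 0.28 (GAR1), with a median of 0.13 over the members and 0.21 over all genes tested. For 28 of the 49 members the 95% interval lay wholly between −0.5 and 0.5, which held for 22.0% of all genes tested. The 3 siDGk libraries lay above all 3 siCON libraries for 8 members, against 18.7% of all genes, and below them for 6 members, against 17.3%. The 5 highest log2 fold changes were those of RCL1, UTP4, RRP12, WDR12 and GNL3, and the 5 lowest those of NOL6, BMS1, NCL, DKC1 and RRP1B.

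**Figure D1:**
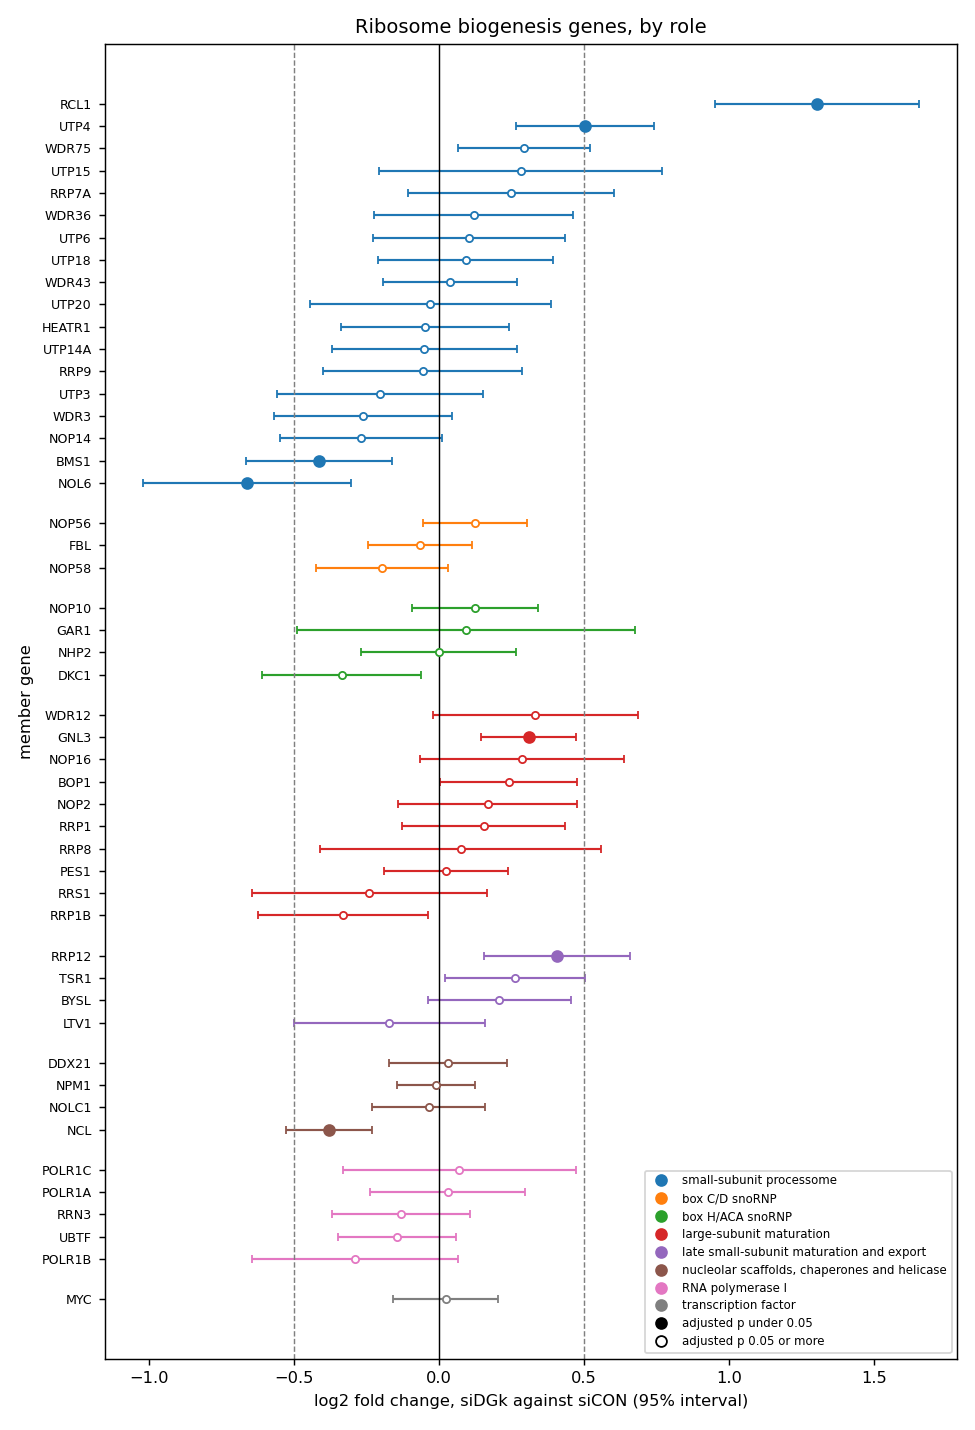
Log2 fold change of each of the 49 members (vertical axis, coloured by role) between siDGk and siCON cells on the horizontal axis, with the 95% interval as a bar, from 3 libraries a group; filled points have an adjusted p under 0.05 and dashed lines mark −0.5 and 0.5. RCL1 stands apart at 1.30, while 7 members in all have filled points and most intervals lie between the dashed lines.

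The small-subunit processome, the assembly that forms on the 5′ end of the precursor, held 18 of the members. The 3 calls were all among these 18 (16.7%), a share near the 14.1% of all genes tested. Its largest difference was in RCL1 (ENSG00000120158.11, chr9:4792944-4885917 in GRCh38), a cyclase-like protein of the processome. RCL1 was measured at 15.4, 18.1 and 18.1 CPM across siCON libraries 1 to 3, against 43.7, 45.3 and 38.2 CPM across siDGk libraries 1 to 3. Each siDGk library held more than 2 times the level of any siCON library, so the groups were far apart. Its log2 fold change was 1.30 ± 0.17 (SE), at an adjusted p of 1.53e-05 in edgeR's test, a 2.47-fold higher level, with a 95% interval of 0.95 to 1.65. Leaving out siDGk library 1 gave 1.26 (adjusted p = 0.000401 in edgeR's test) and leaving out siDGk library 2 gave 1.25, and with each library left out in turn it ran from 1.23 to 1.36. None of its exon bases overlapped another annotated gene, and of its nearest protein-coding neighbours AK3 had a log2 fold change of −0.42 and JAK2 one of 0.35 (standard error 0.37).

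UTP4 (ENSG00000141076.17, chr16:69131291-69231130), the protein also called cirhin and a part of the subcomplex that binds the precursor first, was the other member called higher. Its level was 56.3, 60.2 and 62.8 CPM across siCON libraries 1 to 3, against 80.0, 82.0 and 92.1 CPM across siDGk libraries 1 to 3. The lowest siDGk library was above the highest siCON library. Its log2 fold change of 0.51 ± 0.11 (SE), at an adjusted p of 0.0033 in edgeR's test was barely past the limit of 0.5, with a 95% interval of 0.27 to 0.74. The call ended with DESeq2 (0.496), its shrunken estimate (0.471), RLE size factors (0.497) and the mitochondrial genes left out (0.495). It also ended without siCON replicate 1 (0.46) or siDGk replicate 3 (0.43), and the value was 0.53 without siDGk replicate 1 and 0.53 without siDGk replicate 2.

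NOL6 (ENSG00000165271.16, chr9:33461353-33473930), the nucleolar RNA-associated protein of the processome, was the member called lower. It was at 35.9, 55.9 and 42.3 CPM across siCON libraries 1 to 3, against 27.7, 27.3 and 30.0 CPM across siDGk libraries 1 to 3. The siDGk libraries were close together and all below the siCON libraries, among which replicate 2 was the highest by a wide margin. The log2 fold change was −0.66 ± 0.17 (SE), at an adjusted p of 0.00915 in edgeR's test, a level 1.58 times as high in siCON as in siDGk cells. Without siDGk replicate 1 it was −0.66 and without siDGk replicate 2 −0.63. Without siCON replicate 2 it was −0.46 with an adjusted p of 0.0809 in edgeR's test, and the call was lost.

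BMS1, a GTPase of the processome, passed the adjusted p but not the fold limit. It was at 75.3, 68.3 and 77.6 CPM in the siCON libraries and 60.6, 51.0 and 54.2 CPM in the siDGk libraries, and the groups did not overlap. The log2 fold change was −0.41 ± 0.12 (SE), at an adjusted p of 0.0194 in edgeR's test. It ran from −0.50 to −0.36 with each library left out, and without siDGk replicate 1 it passed the fold limit and was called lower. With siCON library 1, siCON library 3 or siDGk library 2 left out, its adjusted p in edgeR's test was 0.0612, 0.0932 and 0.0803. Its counts are uncertain because 9 pseudogenes bearing its name are in the table and reads aligning to several places were left out.

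The other 14 members of the processome were not called, and none passed the adjusted p. UTP3, UTP6, UTP14A, UTP15, UTP18, UTP20, NOP14, RRP7A, RRP9, WDR3, WDR36, WDR43, WDR75 and HEATR1 had log2 fold changes between −0.27 (NOP14) and 0.29 (WDR75). WDR75, a beta-propeller protein of the same subcomplex as UTP4, was at 77.7, 73.7 and 69.4 CPM in the siCON libraries and 94.3, 94.8 and 82.1 CPM in the siDGk libraries. Its groups did not overlap, but its adjusted p was 0.0665 in edgeR's test. UTP3 and WDR3 lay lower in every siDGk library, with adjusted p-values of 0.476 and 0.249 in that test. Over all 18 the median log2 fold change was 0.0045, with 9 members above 0 and 9 below. Exons of RRP7A, HEATR1, NOP14 and WDR3 overlap other genes, nearly all on the other strand, over 33.9, 23.1, 20.7 and 17.1% of their bases. Counting ignored strand, so their values are uncertain. Exon overlaps, here and for the other members, come from Gencode 44. Which of the overlapping genes were in Gencode 27, used for counting, was not checked.

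**Figure D2:**
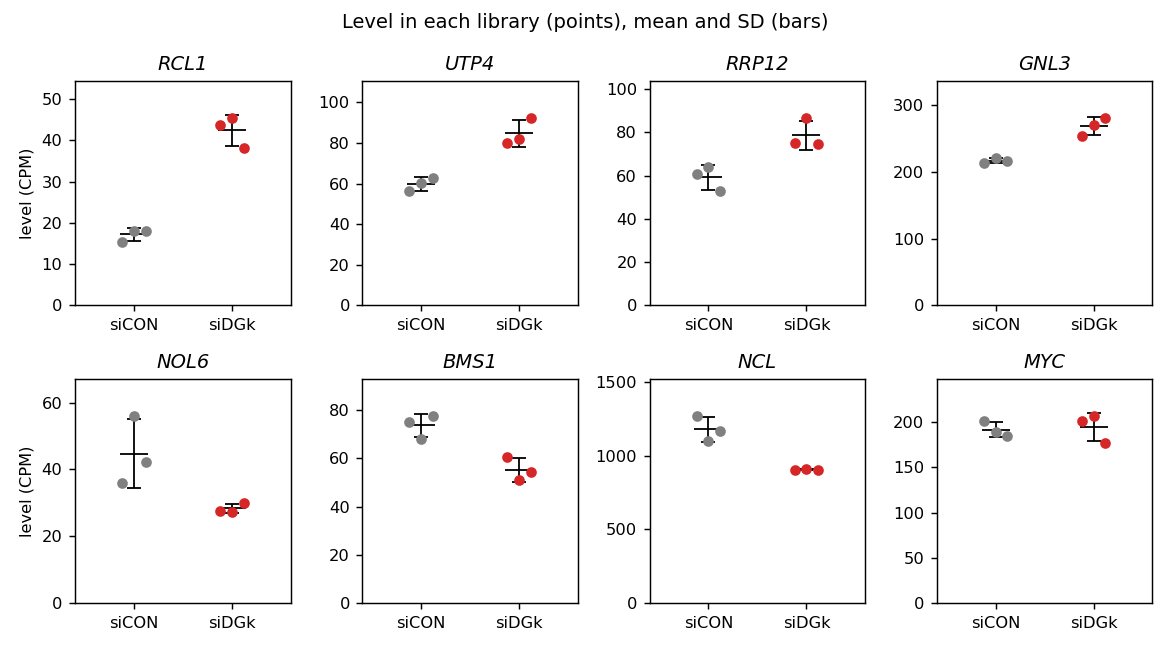
Level in CPM (vertical axes, each from 0) of 8 members in each of the 3 siCON libraries (grey) and the 3 siDGk libraries (red), replicates 1 to 3 from left to right, with the mean and SD as black bars. The groups are apart in the first 7 panels, most widely in RCL1, and overlap in MYC.

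The promoters of the 3 called members were compared because MYC binds the E-box CACGTG, a palindrome that reads the same on both strands. RefSeq promoter windows of 300 bases (250 before and 50 after the start site, GRCh38.p14) matched 42 of the 49 members by symbol. BOP1, MYC, NOLC1, NOP58, RRP12, RRP1B and RRS1 had none. The letters occurred in 15 of the 42 windows (35.7%), against 7.43% of the 27305 promoters of the table and 10.1% of the 10090 promoters matched to tested genes. By role they were in 9 of 18 windows for the processome, 2 of 3 for late small-subunit factors, 1 of 2 for box C/D, 2 of 7 for the large subunit, 1 of 4 for box H/ACA, 0 of 5 for RNA polymerase I and 0 of 3 for nucleolar scaffolds. The windows of all 3 called members hold the letters once, printed in capitals, and NCL, which passed the adjusted p with lower values, is shown as a window without them. The windows are chr9:4792694-4792993 (plus strand) for RCL1, chr16:69132399-69132698 (plus strand) for UTP4, chr9:33473875-33474174 (minus strand) for NOL6 and chr2:231464435-231464734 (minus strand) for NCL, each written 5′ to 3′ along its gene.
RCL1: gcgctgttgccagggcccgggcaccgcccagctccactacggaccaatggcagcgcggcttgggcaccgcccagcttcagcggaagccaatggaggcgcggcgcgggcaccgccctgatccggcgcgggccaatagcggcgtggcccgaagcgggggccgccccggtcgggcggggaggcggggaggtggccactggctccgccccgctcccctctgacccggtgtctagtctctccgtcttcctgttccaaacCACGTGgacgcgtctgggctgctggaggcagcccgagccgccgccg
UTP4: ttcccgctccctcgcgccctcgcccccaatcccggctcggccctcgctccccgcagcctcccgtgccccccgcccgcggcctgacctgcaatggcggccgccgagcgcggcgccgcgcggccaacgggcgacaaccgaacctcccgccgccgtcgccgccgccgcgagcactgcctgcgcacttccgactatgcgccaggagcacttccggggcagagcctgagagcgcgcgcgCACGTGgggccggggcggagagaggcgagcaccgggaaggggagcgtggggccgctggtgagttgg
NOL6: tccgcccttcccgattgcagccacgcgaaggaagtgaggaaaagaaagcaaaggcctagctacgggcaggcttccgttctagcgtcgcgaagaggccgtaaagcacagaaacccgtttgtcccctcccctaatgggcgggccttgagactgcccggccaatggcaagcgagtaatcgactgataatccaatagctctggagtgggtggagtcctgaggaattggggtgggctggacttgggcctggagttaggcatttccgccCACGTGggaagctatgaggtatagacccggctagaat
NCL: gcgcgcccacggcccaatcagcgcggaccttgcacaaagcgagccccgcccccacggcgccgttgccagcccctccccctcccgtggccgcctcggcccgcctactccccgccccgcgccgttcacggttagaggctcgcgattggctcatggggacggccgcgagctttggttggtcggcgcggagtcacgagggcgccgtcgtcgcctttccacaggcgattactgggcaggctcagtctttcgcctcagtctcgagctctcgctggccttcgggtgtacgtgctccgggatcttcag
The first capital lies 4 bases after the start site in RCL1, 16 bases before it in UTP4 and 13 bases after it in NOL6. RCL1 and UTP4 were called higher and NOL6 lower, so the letters accompanied both directions. The 15 members with the letters had a median log2 fold change of 0.025 and the 27 without them one of 0.070. These matches are a description of letters and not of binding.

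Small nucleolar ribonucleoproteins carry guide RNAs to the precursor. The box C/D particles methylate ribose, with FBL (fibrillarin) as the methyltransferase and NOP56 and NOP58 as its scaffold. FBL was at 169, 183 and 161 CPM across siCON libraries 1 to 3, against 163, 166 and 162 CPM across siDGk libraries 1 to 3. The siDGk libraries lay within the range of the siCON libraries, and the log2 fold change was −0.065 with a 95% interval of −0.24 to 0.11. NOP56 and NOP58 had log2 fold changes of 0.13 and −0.20, and both had overlapping groups. None of the 3 passed an unadjusted p of 0.05 in edgeR's test (30.6% of all genes), and DESeq2 called 0 (14.0% of all genes).

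The box H/ACA particles convert uridine to pseudouridine through DKC1 (dyskerin), held by NHP2, GAR1 and NOP10. DKC1 was at 93.2, 65.9 and 85.5 CPM across siCON libraries 1 to 3, against 66.6, 67.6 and 59.5 CPM across siDGk libraries 1 to 3. Of the siCON libraries, 2 were above all siDGk libraries, but siCON replicate 2 lay among them, and the groups overlapped. The log2 fold change was −0.33 ± 0.13 (SE), at an adjusted p of 0.0831 in edgeR's test, among the 5 lowest of the members. NOP10, GAR1 and NHP2 had log2 fold changes of 0.13, 0.093 and −0.00054. GAR1 had the widest 95% interval of all members, −0.49 to 0.68. Of these 4 genes, 1 had an unadjusted p under 0.05 in edgeR's test (30.6% of all genes), and DESeq2 called 0 (14.0% of all genes). Exon bases of NHP2 overlap RMND5B on the other strand over 28.0% of their length.

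Factors of the large subunit had 8 of 10 log2 fold changes above 0, where 7450 of all 14476 genes were above 0, with a median of 0.16. None of the 10 was called, against 14.1% of all genes. GNL3 (nucleostemin), a nucleolar GTPase, was the most precise of them. It was at 213, 221 and 216 CPM across siCON libraries 1 to 3, against 255, 271 and 280.5 CPM across siDGk libraries 1 to 3. All siDGk libraries were above all siCON libraries, and the replicates of each group were close together. Its log2 fold change was 0.31 ± 0.08 (SE), at an adjusted p of 0.00781 in edgeR's test, under the fold limit. Without siCON replicate 3, the shallowest library, the log2 fold change was still 0.31 and the adjusted p in edgeR's test was 0.0517. Other annotated genes, mostly small nucleolar RNAs, share 4.1% of its exon bases.

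WDR12, PES1 and BOP1 form the PeBoW complex that is needed to process the large-subunit precursor. WDR12 was at 88.1, 49.7 and 60.2 CPM in the siCON libraries and 82.0, 96.4 and 71.5 CPM in the siDGk libraries. The groups overlapped, since siCON replicate 1 was higher than siDGk replicates 1 and 3, and the log2 fold change was 0.33 (adjusted p = 0.193 in edgeR's test). Single libraries decided that value, which was 0.60 and called higher without siCON replicate 1, 0.16 without siCON replicate 2 and 0.22 without siDGk replicate 2. BOP1 had a log2 fold change of 0.24 and PES1 one of 0.025, with a 95% interval for PES1 of −0.19 to 0.24. RRP1B, a nucleolar partner of a protein phosphatase, was lower in every siDGk library. It was at 60.2, 46.8 and 51.4 CPM in the siCON libraries and 45.3, 39.6 and 41.1 CPM in the siDGk libraries, with a log2 fold change of −0.33 ± 0.14 (SE), at an adjusted p of 0.112 in edgeR's test. NOP16, NOP2, RRP1, RRP8 and RRS1 had log2 fold changes of 0.29, 0.17, 0.15, 0.076 and −0.24. With each library left out NOP16 ran from 0.18 to 0.36, NOP2 from 0.017 to 0.25 and RRS1 from −0.36 to −0.13. The NOP16 groups did not overlap, whereas the groups of NOP2, RRP1, RRP8 and RRS1 did. Genes on the other strand overlap 18.6% of NOP16's exon bases, which makes its counts uncertain. Of NOP2's exon bases, 54.4% belong in Gencode 44 to another gene on the same strand. Its counts are uncertain if the annotation used for counting held that gene. In edgeR's test 3 of the 10 had an unadjusted p under 0.05, near the 30.6% of all genes. DESeq2 called 0, against 14.0% of all genes.

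Late maturation and export of the small subunit was represented by RRP12, TSR1, BYSL and LTV1. RRP12, a HEAT-repeat protein of nuclear export, was at 60.8, 63.9 and 52.7 CPM across siCON libraries 1 to 3, against 75.0, 86.4 and 74.4 CPM across siDGk libraries 1 to 3. The groups did not overlap, and the siDGk levels were 78.6 ± 6.78 CPM on average against 59.1 ± 5.76 CPM (SD, n = 3). Its log2 fold change was 0.41 ± 0.12 (SE), at an adjusted p of 0.0214 in edgeR's test, under the fold limit. It ran from 0.34 to 0.47 with each library left out, and the adjusted p in edgeR's test was 0.104, 0.0515 and 0.103 without siCON replicate 3, siDGk replicate 1 and siDGk replicate 2. TSR1 and BYSL also had siDGk libraries above all siCON libraries, with log2 fold changes of 0.26 and 0.21 and adjusted p-values of 0.127 and 0.252 in the same test. LTV1, an assembly factor of the subunit's head, had a log2 fold change of −0.17 with overlapping groups. Exon overlaps of 34.7% in LTV1 and 26.9% in TSR1 make these counts uncertain. DESeq2 called none of the 4, against 14.0% of all genes, and 2 had an unadjusted p under 0.05 in edgeR's test, where 30.6% of all genes did.

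Nucleolin (NCL), a chaperone that binds the precursor, was the abundant member with a clear difference. It was at 1270.2, 1099 and 1169.9 CPM across siCON libraries 1 to 3, against 906, 913 and 905 CPM across siDGk libraries 1 to 3. The siDGk libraries nearly coincided and lay below all siCON libraries, which spread more widely. The log2 fold change was −0.38 ± 0.07 (SE), at an adjusted p of 0.000711 in edgeR's test, with a 95% interval of −0.53 to −0.23 and a siCON level 1.30 times as high, under the fold limit. It passed the adjusted p with each library left out, with log2 fold changes of −0.43 to −0.32. Its gene (chr2:231453531-231483641) contains snoRNA genes that share 2.4% of its exon bases.

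NPM1 (nucleophosmin), the histone and ribosome chaperone of the granular nucleolus, was the most abundant member. It was at 1677, 1636 and 1559 CPM across siCON libraries 1 to 3, against 1588, 1636 and 1615 CPM across siDGk libraries 1 to 3. The siDGk libraries fell within the siCON range. The log2 fold change was −0.010, and its 95% interval of −0.15 to 0.13 was the narrowest of the members. The table holds 34 pseudogenes with its name, and reads shared with them were left out of the counts. NOLC1, a phosphoprotein that binds snoRNPs, and DDX21, an RNA helicase, had log2 fold changes of −0.035 and 0.032, each with overlapping groups.

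RNA polymerase I was covered by 2 catalytic-core subunits, 1 further subunit and 2 initiation factors. POLR1A, the largest subunit, was at 66.8, 51.9 and 65.5 CPM across siCON libraries 1 to 3, against 59.7, 63.1 and 65.1 CPM across siDGk libraries 1 to 3. POLR1B, the second largest, was at 43.9, 32.4 and 37.5 CPM across siCON libraries 1 to 3, against 32.3, 26.0 and 34.8 CPM across siDGk libraries 1 to 3. POLR1C, which RNA polymerase III shares, was at 36.2, 38.2 and 24.1 CPM across siCON libraries 1 to 3, against 33.8, 28.4 and 41.6 CPM across siDGk libraries 1 to 3. Values of siCON and siDGk libraries were interleaved in all 3 genes. The log2 fold changes were 0.030, −0.29 and 0.070, with 95% intervals of −0.24 to 0.30, −0.64 to 0.066 and −0.33 to 0.47. Genes on the other strand overlap 18.3% of POLR1C's exon bases, which makes its counts uncertain.

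UBTF, the upstream binding factor that keeps ribosomal DNA open, was at 104, 120.4 and 114 CPM across siCON libraries 1 to 3, against 101, 101 and 104 CPM across siDGk libraries 1 to 3. RRN3, the factor that joins the polymerase to its promoter complex, was at 74.7, 73.9 and 83.6 CPM across siCON libraries 1 to 3, against 70.5, 76.5 and 65.2 CPM across siDGk libraries 1 to 3. For UBTF 2 siDGk libraries lay below all siCON libraries, the third just above the lowest of them, and for RRN3 the groups overlapped. Their log2 fold changes were −0.15 and −0.13, with 95% intervals of −0.35 to 0.058 and −0.37 to 0.11. None of the 5 genes was called or had an unadjusted p under 0.05 in edgeR's test, where 14.1 and 30.6% of all genes did, and DESeq2 called 0, against 14.0% of all genes. The median of the 5 log2 fold changes was −0.13.

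MYC was at 201, 189.6 and 185 CPM across siCON libraries 1 to 3, against 201, 207 and 177 CPM across siDGk libraries 1 to 3. The lowest and the highest of the 6 values both belonged to siDGk libraries. The log2 fold change was 0.023 with a standard error of 0.09, and the 95% interval was −0.16 to 0.20.

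Levels can be compared between members only per length, as TPM from the summed exon length of each gene. These are given for the siCON libraries alone, because the short T cell receptor segments took 27.1% of the TPM of siDGk replicate 1. The median member had 48.9 TPM in siCON cells, against 13.7 TPM for all genes tested. NPM1 (711 ± 17.0 TPM, SD, n = 3) and NCL (482 ± 33.9 TPM) were the most abundant members. With the canonical transcript length, chosen after seeing the data, they were at 2465 and 603 TPM and still the highest. FBL followed at 292 ± 17.0 TPM and GNL3 at 244 ± 5.53 TPM. Their ranks changed with the canonical transcript length, to 4 for FBL and 6 for GNL3, with NOP10 at rank 3. At the low end were RRP8 at 8.89 TPM, UTP15 at 9.21 TPM and UTP20 at 9.37 TPM, whose library values overlapped. RCL1 ranked 45 of 49 with 15.1 TPM, and 39 with the canonical transcript length. By role the median level was 302 TPM for the nucleolar scaffolds, 158 TPM for box C/D and 97.1 TPM for box H/ACA. It was 57.5 TPM for late small-subunit factors, 40.5 TPM for the large subunit, 31.2 TPM for the processome and 21.7 TPM for RNA polymerase I. The order of the roles listed after box H/ACA turned with the canonical transcript length. RNA polymerase I was then at 41.9 TPM, the large subunit at 35.8 TPM, late small-subunit factors at 33.4 TPM and the processome at 20.8 TPM.

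**Figure D3:**
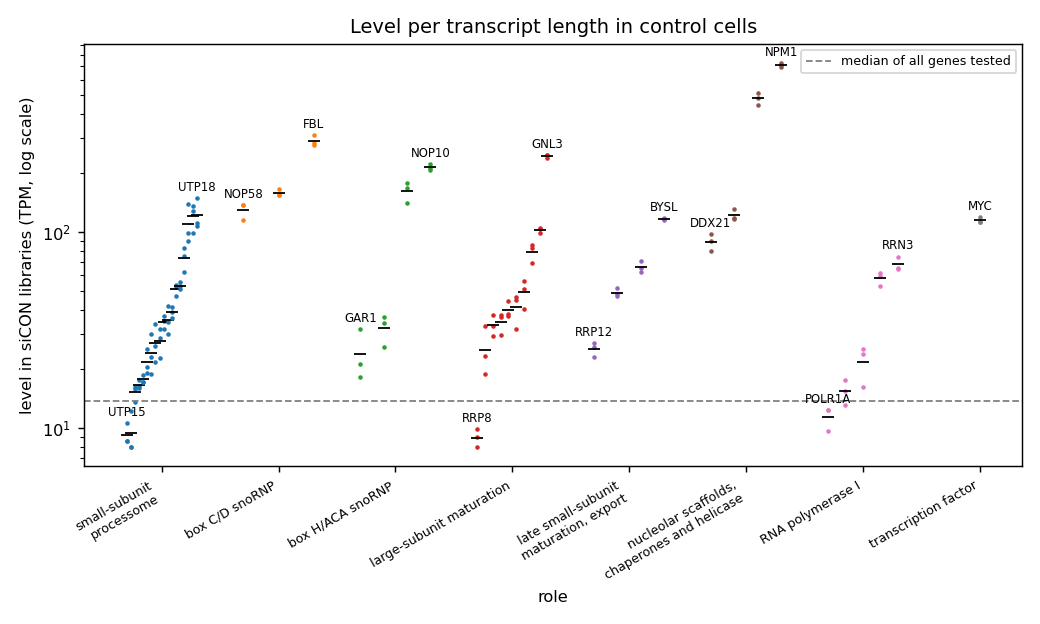
Level per transcript length (TPM, log axis) of the 49 members in siCON cells, by role on the horizontal axis, with the 3 libraries as points, their mean as a black bar and the lowest and highest member of each role named. NPM1 is highest, and the members' median of 48.9 TPM exceeds the dashed median of all genes tested, 13.7 TPM.

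The summed level of the 49 members was 6553, 6133 and 6236 CPM across siCON libraries 1 to 3, against 6107, 6196 and 6166 CPM across siDGk libraries 1 to 3. The highest total was in siCON replicate 1 and the lowest in siDGk replicate 1, and the groups overlapped.

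Other genes were counted in 6 lists with 126 of 129 genes tested. Of the lists, 5 hold genes of the pathway and 1 holds MYC partners, antagonists and related factors. Of the 126 genes, 7 were called higher and 2 lower, against 7.42 and 6.68% of all genes tested, and the median log2 fold change was 0.081. Without siCON replicate 1 the counts were 4 higher and 1 lower, and without siDGk replicate 2 they were 9 and 1. At the adjusted p alone 13 were higher and 3 lower, against 10.3 and 9.35% of all genes. In the 5 pathway lists, 6 of 116 genes were called higher and 2 lower, against 7.42 and 6.68% of all genes. Their median log2 fold change was 0.072. Among 14 other RNA polymerase I subunits and factors, 2 were called higher and none lower, against the same shares. POLR1D, a subunit shared with RNA polymerase III, was at 189.6, 209 and 216 CPM in the siCON libraries and 333, 326 and 333 CPM in the siDGk libraries, with the groups far apart. Its log2 fold change was 0.69 ± 0.08 (SE), at an adjusted p of 3.77e-06 in edgeR's test. POLR2K, a small subunit common to all nuclear RNA polymerases, was at 28.2, 36.0 and 32.9 CPM in the siCON libraries and 59.5, 54.8 and 51.2 CPM in the siDGk libraries. These groups were likewise apart, with a log2 fold change of 0.77 ± 0.14 (SE), at an adjusted p of 0.000711 in edgeR's test.

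Among 37 other small-subunit factors, 1 was called higher and 2 lower, where 7.42 and 6.68% of all genes were. RIOK3, a kinase of late small-subunit particles, had a log2 fold change of 0.61 ± 0.12 (SE), at an adjusted p of 0.000981 in edgeR's test. MPHOSPH10, which anchors the U3 particle in the processome, was called lower. It was at 117, 97.5 and 90.4 CPM in the siCON libraries and 76.1, 54.9 and 62.0 CPM in the siDGk libraries, with a log2 fold change of −0.66 ± 0.13 (SE), at an adjusted p of 0.00126 in edgeR's test. Every siDGk library was below every siCON library for this gene. NOL11, a partner of UTP4, was called lower with a log2 fold change of −0.52 ± 0.13 (SE), at an adjusted p of 0.00632 in edgeR's test. Its value was −0.43 without siCON replicate 1 and −0.47 without siDGk replicate 2, which ended the call.

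Among 41 other large-subunit factors, 3 were called higher (7.32%) and none lower, near the 7.42% of all genes called higher and against 6.68% called lower. GNL3L, a GTPase related to GNL3, had a log2 fold change of 0.81 ± 0.22 (SE), at an adjusted p of 0.0126 in edgeR's test, and its call was lost through the adjusted p without siCON replicate 1 (0.68, adjusted p = 0.0644 in edgeR's test) or siDGk replicate 3 (0.69, adjusted p = 0.0604). RSL24D1, which occupies the site of a ribosomal protein during assembly, had one of 0.60 ± 0.08 (SE), at an adjusted p of 2.28e-05 in edgeR's test. RPF2, which helps to place the small ribosomal RNA of the large subunit, had one of 0.55 ± 0.13 (SE), at an adjusted p of 0.00427 in edgeR's test, and fell under the fold limit without siCON replicate 1 (0.49) or siDGk replicate 3 (0.47). None of 14 RNA exosome genes and none of 10 snoRNP assembly genes was called by edgeR or DESeq2, against 14.1 and 14.0% of all genes. At an unadjusted p under 0.05 in edgeR's test there were 2 and 4 of them, where 30.6% of all genes passed. Of 10 tested genes in the list of MYC partners, antagonists and related factors, 1 was called higher (7.42% of all genes). It was MLX, one of the related factors, with a log2 fold change of 0.56 ± 0.12 (SE), at an adjusted p of 0.00304 in edgeR's test. Without siCON replicate 1 it was 0.49, which ended the call.

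The proteins that the pathway assembles are counted for comparison. Of 85 cytosolic ribosomal protein genes tested, 4 were called higher and none lower, against 7.42 and 6.68% of all genes. The 4 were RPL22L1, RPL9, RPL7L1 and RPL26, with log2 fold changes of 0.66, 0.54, 0.53 and 0.51. At the adjusted p alone 28 of the 85 were higher and 3 lower, where 10.3 and 9.35% of all genes were, and the siDGk libraries lay above all siCON libraries for 36 and below them for 5, against 18.7 and 17.3% of all genes. Their median log2 fold change was 0.15. RPL22L1 and RPL7L1 are paralogues of ribosomal proteins, and many of these genes have processed pseudogenes, so their counts are uncertain. Of 78 mitochondrial ribosomal protein genes, 5 were called higher and none lower, against the same 7.42 and 6.68%, and the largest log2 fold change among the 5 was 0.73 in MRPS10. At the adjusted p alone 14 of the 78 were higher and none lower, against 10.3 and 9.35% of all genes, and their median log2 fold change was 0.078. No difference between these lists and the 49 members was tested.

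**Figure D4:**
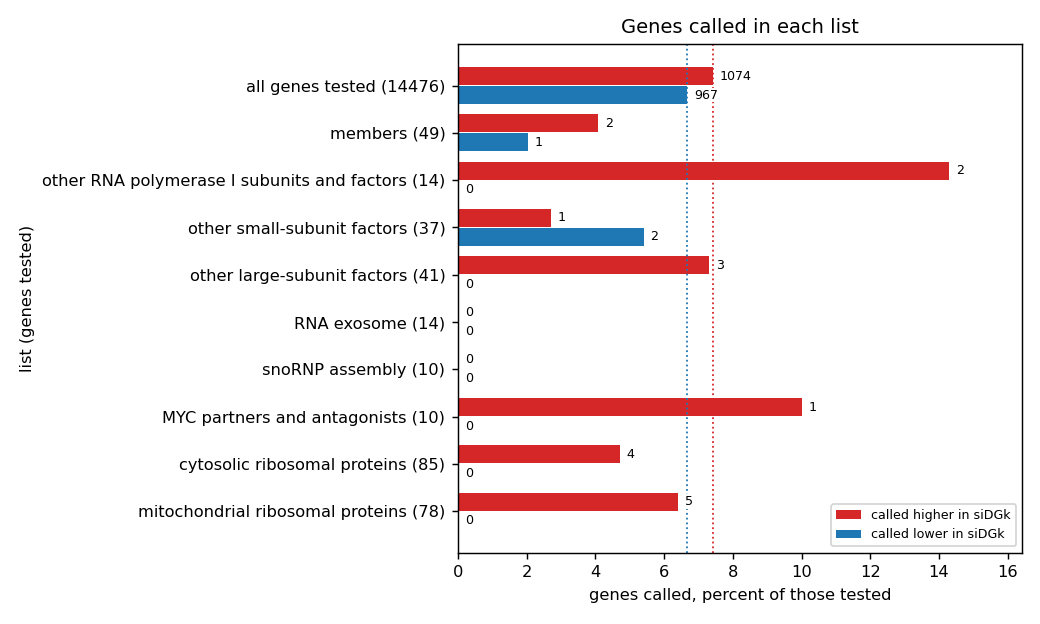
Percent of tested genes called higher (red) and lower (blue) in siDGk cells (horizontal axis, from 0) in each list (vertical axis, with the number tested), with the number called beside each bar; dotted lines mark the shares over all 14476 genes. The members have 2 calls higher and 1 lower, and the other lists have between 0 and 5 calls in either direction.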

How the data were processed

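RNA of 6 HepG2 libraries, 3 a group, was analysed (the labels give the molecule as polyA RNA, but their protocol leaves poly(A) selection or rRNA depletion undecided) from the deposited table of raw counts per gene, read by the authors with STAR 2.6.1 (after filtering with Bowtie 1.1.2) and featureCounts 1.6.5 on GRCh38 and Gencode 27. Default counting ignores strand and leaves out reads that align to several places. Genes passing filterByExpr (minimum count 10) were fitted in edgeR 4.0.16 (R 4.3.3) with TMM scaling and a robust quasi-likelihood F test, condition being the sole term, and p-values were adjusted by Benjamini-Hochberg over all 14476 genes. Genes below 0.05 in adjusted p with a log2 fold change beyond 0.5 either way were called. Standard errors come from the fold change and its F statistic, and 95% intervals cover the spread between these libraries alone. TPM used exon lengths of Gencode 44, from which exon overlaps and neighbouring genes were also taken. Tests were chosen before the data were examined, but the members and lists were chosen with earlier results of these data known. Named were called members, those past the adjusted p, the 5 highest and 5 lowest, 10 set genes (MYC, UBTF, RRN3, POLR1A, POLR1B, POLR1C, NCL, NPM1, FBL and DKC1), and called genes of the other lists. Members singled out for groups that did not overlap (WDR75 and others) were chosen after seeing the values. Tried instead were DESeq2 1.42.0, plain and shrunken, RLE and upper-quartile scaling, no count filter, a replicate block, mitochondrial genes left out, adjusted p alone, raw library totals and each library left out.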

Additional observations from a re-analysis of the deposited data

How the results depend on the processing

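Of the members' log2 fold changes under single alternatives, 594 kept their direction and their call or lack of one, 34 changed sign, 7 lost the call and 2 gained it. The count of members called higher was 1 with DESeq2, with shrunken fold changes, with RLE size factors and with mitochondrial genes left out, in each case because UTP4 fell under the fold limit, and 4 with the adjusted p alone; it ran from 1 to 2 with each library left out. The count called lower was 3 with the adjusted p alone and ran from 0 to 2 with each library left out. At the adjusted p alone, the counts with each library left out were 2 to 5 higher and 2 to 3 lower, and the members' median ran from −0.021 to 0.060. In the 6 other lists the calls higher ran from 4 to 10 and those lower from 1 to 2, and with shrunken fold changes 1 was lower, since NOL11 came to −0.498. With library sizes from raw totals, 9 members were apart higher and 5 lower, BOP1 being added and UTP3 lost. Same-numbered libraries showed no shared deviation (correlations of deviations across genes 0.024, 0.017 and −0.0022), which cannot show whether they were set up together. With the replicate block RCL1 was 1.30, UTP4 0.502 and NOL6 −0.64, and all 3 kept their calls.

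Values near 0 changed sign. UTP20 was 0.0029 with the replicate block and NHP2 0.0057 without the count filter. With each library left out, the ranges were −0.055 to 0.23 (UTP6), −0.15 to 0.067 (UTP14A), −0.063 to 0.24 (UTP18), −0.14 to 0.22 (UTP20), −0.17 to 0.16 (RRP9), −0.033 to 0.24 (WDR36), −0.086 to 0.14 (WDR43), −0.13 to 0.096 (HEATR1), −0.11 to 0.075 (NHP2), −0.16 to 0.38 (GAR1), −0.14 to 0.26 (RRP8), −0.063 to 0.10 (PES1), −0.038 to 0.015 (NPM1), −0.080 to 0.0092 (NOLC1), −0.038 to 0.12 (DDX21), −0.079 to 0.099 (POLR1A), −0.10 to 0.19 (POLR1C) and −0.018 to 0.080 (MYC). Another 18 members, none of them called with all libraries, kept their sign and moved by over 1.5 times without 1 library, with ranges of 0.14 to 0.48 (UTP15), −0.39 to −0.17 (NOP14), 0.10 to 0.43 (RRP7A), −0.34 to −0.15 (WDR3), 0.062 to 0.17 (NOP56), −0.30 to −0.13 (NOP58), −0.11 to −0.012 (FBL), 0.051 to 0.18 (NOP10), 0.017 to 0.25 (NOP2), 0.18 to 0.36 (NOP16), −0.36 to −0.13 (RRS1), 0.16 to 0.60 (WDR12), 0.15 to 0.31 (BOP1), 0.13 to 0.27 (BYSL), −0.22 to −0.11 (LTV1), −0.39 to −0.17 (POLR1B), −0.20 to −0.095 (UBTF) and −0.19 to −0.071 (RRN3). The other 13, with the 3 called members, moved by less. Leaving a library out leaves fewer samples, and the cause of each change was not tested. With the canonical transcript length, chosen after seeing the data, NPM1 was at 2465 TPM and NCL at 603 TPM, and they kept ranks 1 and 2. The median then was 40.3 TPM for the members and 11.9 TPM for all genes tested, and by role 350.2 TPM (scaffolds), 225 TPM (box C/D), 117 TPM (box H/ACA), 41.9 TPM (RNA polymerase I), 35.8 TPM (large subunit), 33.4 TPM (late small subunit) and 20.8 TPM (processome). Members with few counts, such as GAR1 and UTP15, have the widest intervals, which limits what their values can show.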
